A study of Canis lupus familiaris with 31 samples.

Results

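The 10 genes described here are 5 transcription factors of the megakaryocyte lineage (NFE2, FLI1, RUNX1, MEIS1 and GFI1B), 3 genes of the platelet cytoskeleton (TUBB1, MYL9 and VCL), the cGMP-dependent kinase gene PRKG1, and ENDOD1, which encodes a protein with an endonuclease-like domain. They were chosen by gene symbol, and each symbol matched 1 of the 32704 rows of the count table. All 10 passed the filter on low counts and were among the 13918 genes tested. Whole blood was taken from client-owned adult Miniature Schnauzers, with 1 RNA library per dog. The 13 cases (8 males and 5 females) had a raised level of fasting serum triglycerides (HTG), above the study's upper cutoff, and had been screened for common secondary causes. The 18 controls (10 males and 8 females) were at or below a lower cutoff. No dog carried an introduced allele or received an experimental agent, dogs on drugs that alter lipids were not enrolled, and the diet and daily life of these pets were not standardised.

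Megakaryocytes are the large bone marrow cells that shed platelets into the blood. Platelets have no nucleus, and they keep a store of the messenger RNA that the megakaryocyte made. Transcription factors such as RUNX1, FLI1, GFI1B and NF-E2 act in sequence as a progenitor commits to the lineage, enlarges and releases platelets, and their products switch on structural genes, among them the tubulin, myosin and adhesion proteins that give a platelet its disc shape and let it contract. In whole blood the messenger RNA of structural platelet genes comes mainly from platelets, whereas several of these factors are also made by leukocytes and by erythroid cells. In such bulk samples fewer cells of a type and less RNA per cell cannot be told apart.

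Counts per dog ranged from 14524659 to 41533599. The 10 dogs with the highest mean level over 369 rows of small non-coding RNA (5 cases and 5 controls, each at 1.70 log2 CPM or above) were set apart from the other 21 (8 cases and 13 controls, each at 1.44 or below). The size of the high side of this split was fixed at 10, and only which dogs fell there came from the data. The study's methods describe the same number of re-sequenced pilot libraries, so the number itself is not a match found in the data. The labels do not name the pilot libraries. Values within each side are therefore given for the genes below. Control 3 stood apart, with the smallest total count, the smallest normalisation factor (0.53) and the largest sums of erythroid (27897 CPM) and platelet (5376 CPM) markers among the controls. Where leaving it out changed whether a gene passed the adjusted threshold, both values are given. Genes that mark neutrophils, monocytes, T cells, B cells and erythroid cells were detected in both groups, as the label whole blood implies.

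All 5 structural and effector genes, TUBB1, MYL9, VCL, PRKG1 and ENDOD1, had a higher mean in the cases, by 1.45-fold to 1.90-fold, and each had an unadjusted P-value under 0.05. None of the 5 transcription factors had such a P-value in edgeR with all dogs, and 3 of them had a log2 fold change below 0. Over all genes tested, 9.81% had such a P-value (5.04% higher in the cases and 4.76% lower), and 45.5% had a log2 fold change above 0. After Benjamini-Hochberg adjustment of the edgeR quasi-likelihood P-values, 0 of the 10 genes and 0.0359% of all genes (5 genes) passed the threshold of 0.05. With DESeq2, 4 of the 10 passed it (TUBB1, VCL, PRKG1 and ENDOD1), all higher in the cases, beside 0.43% of all genes higher in the cases and 0.563% in either direction. VCL, PRKG1 and ENDOD1 are among the genes that the study selected as different on these same dogs. The direction of these genes, and that of TUBB1, tested on the same dogs, is therefore not independent evidence.

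**Figure D1:**
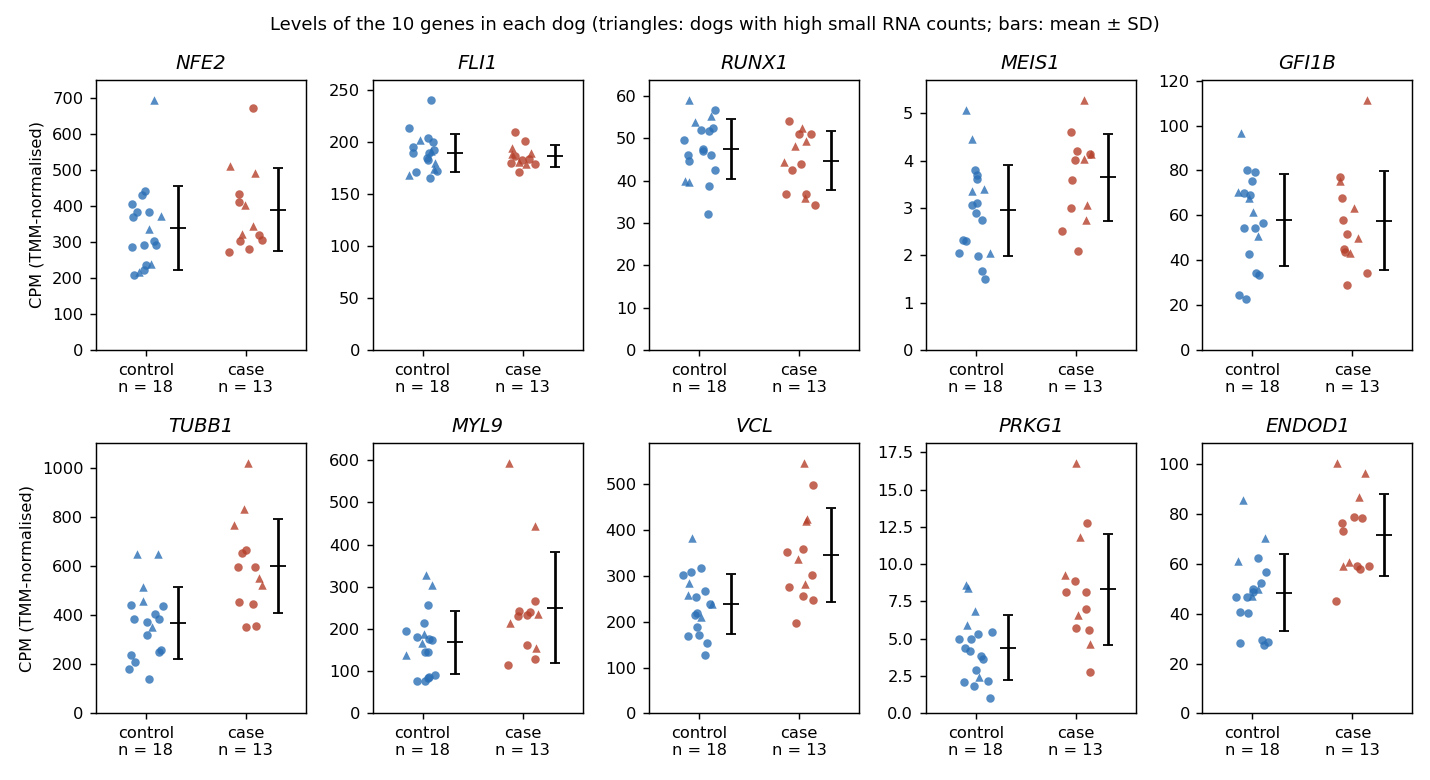
Level of each gene in every dog, in CPM (counts scaled to the TMM-normalised library size), with controls in blue and HTG cases in red. Triangles are the 10 dogs with high small RNA counts, circles are the other 21, and bars give the mean ± SD. The cases sit above most controls for TUBB1, VCL, PRKG1 and ENDOD1, whereas the groups overlap nearly fully for FLI1, RUNX1 and GFI1B.

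TUBB1 (ENSCAFG00000032130) encodes β1-tubulin, the tubulin isoform of megakaryocytes and platelets that forms the ring of microtubules at the rim of the platelet. Its level in CPM, the count scaled to the TMM-normalised library size, ranged from 354 to 1021 (median 596) among cases and from 139 to 651 (median 379) among controls. In 5 of 13 cases the level was above that of the highest control, and 8 of 18 controls lay below the lowest case. The means were 602 ± 192 CPM (SD, n = 13) and 369 ± 146 CPM (SD, n = 18). Cases exceeded controls by 0.71 on the log2 scale (SE 0.19, edgeR adjusted P = 0.123), and 72 of the 13918 genes had a smaller P-value. TUBB1 was higher in dogs of the high small RNA side in both groups (cases 740 against 516 CPM, controls 525 against 309 CPM on average), and within the sides the log2 fold change was 0.49 (SE 0.22) on the high side and 0.74 (SE 0.20) on the low side.

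MYL9 (ENSCAFG00000008540) encodes a regulatory light chain of non-muscle myosin, whose phosphorylation drives platelet contraction. In the cases MYL9 ranged from 114 to 593 CPM around a median of 232, and in the controls from 75.6 to 327 CPM around a median of 171. Most cases lay within the range of the controls, with 2 above the highest control, and 9 of 13 lay above the control median. The log2 fold change was 0.58 (SE 0.23, unadjusted P = 0.0166, edgeR adjusted P = 0.364). A single dog weighed heavily on it. Case 9, at 593 CPM, had the highest level of all dogs, and without this dog the log2 fold change was 0.40 (edgeR unadjusted P = 0.0673). On the high and low sides of the small RNA split the log2 fold changes were 0.54 (SE 0.37) and 0.47 (SE 0.23).

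VCL (ENSCAFG00000015254) encodes vinculin, which couples integrins through talin to actin filaments at sites of adhesion. Cases spanned 198 to 546 CPM around a median of 337, and controls 127 to 381 CPM around a median of 239. Of the 13 cases, 12 lay above the control median and 4 above the highest control. The means of 346 ± 102 CPM (SD, n = 13) and 239 ± 65.3 CPM (SD, n = 18) gave a log2 fold change of 0.53 (SE 0.14, edgeR adjusted P = 0.127). It was 0.54 (SE 0.20) on the high side of the small RNA split and 0.47 (SE 0.17) on the low side.

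PRKG1 (ENSCAFG00000031979) encodes cGMP-dependent protein kinase I, through which nitric oxide restrains platelet activation and relaxes smooth muscle. It had few counts, from 59 to 261 in the cases and from 30 to 168 in the controls, and its level was 2.80 to 16.8 CPM (median 8.12) and 1.06 to 8.63 CPM (median 4.29), respectively. In 5 cases PRKG1 was above the highest control, and in 5 controls it was below the lowest case. Among the 10 genes it had the largest log2 fold change, 0.93 (SE 0.25, edgeR adjusted P = 0.126), and also the widest spread between dogs of a group, with an SD of 0.74 on the log2 CPM scale against a median of 0.36 over all genes tested. The log2 fold change was 0.61 (SE 0.38) on the high side of the split and 1.03 (SE 0.27) on the low side.

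ENDOD1 (ENSCAFG00000004129) had the smallest P-value of the 10 genes. Its level ran from 45.1 to 100.4 CPM in the cases (median 73.0) and from 27.6 to 85.7 CPM in the controls (median 47.9). The highest control was control 3, and 3 cases exceeded it. Between means of 71.6 ± 16.5 CPM (SD, n = 13) and 48.4 ± 15.4 CPM (SD, n = 18), the log2 fold change was 0.57 (SE 0.14, edgeR adjusted P = 0.113). It was 0.36 (SE 0.20) on the high side and 0.62 (SE 0.15) on the low side of the split.

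The same few dogs held the extremes of these 5 genes. Case 9 ranked 1 of the 31 dogs for all 5, and for MEIS1 too. The lowest case was case 12 for TUBB1, VCL and ENDOD1, and case 11 for MYL9 and PRKG1. Case 12 ranked 23, 25, 26 and 25 of the 31 dogs for TUBB1, MYL9, VCL and ENDOD1, that is, among the lower controls, but 14 for PRKG1. Among the controls the highest levels were those of control 13 (TUBB1 and PRKG1), control 2 (MYL9 and VCL) and control 3 (ENDOD1), all 3 on the high side of the small RNA split.

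Among the transcription factors, NFE2 (ENSCAFG00000030927) encodes the blood-restricted subunit of NF-E2, a factor needed for platelet release that also acts in erythroid and myeloid cells. NFE2 ranged from 271 to 672 CPM in the cases (median 344) and from 208 to 695 CPM in the controls (median 318). No case was above the highest control, which was control 3. Its log2 fold change was 0.20 (95% interval −0.10 to 0.50, edgeR adjusted P = 0.702). Without control 3 it was 0.29 (unadjusted P = 0.0388, edgeR adjusted P = 0.273), and without case 1, the highest case, it was 0.11 (unadjusted P = 0.455). On the high and low sides of the small RNA split it was 0.16 (SE 0.29) and 0.20 (SE 0.17).

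FLI1 (ENSCAFG00000032412), an ETS-domain factor made in megakaryocytes and in many leukocytes, was the steadiest of the 10. It stayed between 171 and 209.8 CPM in the cases (median 184) and between 165 and 241 CPM in the controls (median 189), with an SD between dogs of a group of 0.11 on the log2 CPM scale. The log2 fold change was −0.03, and its 95% interval, −0.12 to 0.07, was the narrowest of the 10 genes. A difference in FLI1 of the size seen for TUBB1 therefore lay outside this interval. Within the high and low sides FLI1 was at 0.02 (SE 0.09) and −0.04 (SE 0.07).

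RUNX1 (ENSCAFG00000009596) encodes the runt-domain partner of CBFβ and is active in most lineages of blood cells. Its cases lay between 34.3 and 54.1 CPM (median 44.4) and its controls between 32.1 and 59.1 CPM (median 47.3), so that the case range fell within that of the controls. On the log2 scale the cases differed from the controls by −0.09 (95% interval −0.25 to 0.07, edgeR adjusted P = 0.770), and by −0.11 (SE 0.15) and −0.09 (SE 0.10) on the high and low sides. GFI1B (ENSCAFG00000019877), a zinc finger repressor of erythroid cells and megakaryocytes, ranged from 29.0 to 112 CPM in the cases (median 51.9) and from 22.7 to 96.5 CPM in the controls (median 59.1). Its log2 fold change was −0.01, with an interval of −0.38 to 0.36 that is too wide to set a small difference apart from none, and it was −0.01 (SE 0.25) on the high side and −0.08 (SE 0.24) on the low side.

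MEIS1 (ENSCAFG00000003233), a homeodomain factor of progenitors and megakaryocytes, was the factor closest to the threshold. It had from 42 to 119 counts in the cases and from 26 to 129 in the controls, or 2.09 to 5.28 CPM (median 4.01) and 1.51 to 5.08 CPM (median 2.98). MEIS1 was above the control median in 10 of 13 cases, and above the highest control in 1. The log2 fold change was 0.31 (95% interval −0.01 to 0.62, unadjusted P = 0.0635, edgeR adjusted P = 0.545). It was 0.06 (SE 0.28) within the high side of the small RNA split and 0.40 (SE 0.18) within the low side, where the unadjusted P-value was 0.0418. In limma-voom on all dogs the unadjusted P-value of MEIS1 was 0.0492, and in edgeR it was under 0.05 in 5 of the 31 fits that each left out 1 dog.

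Whether any of the 10 genes passed the threshold turned on the tool and on control 3. In DESeq2 the adjusted P-values were 0.0352 for ENDOD1, 0.0391 for TUBB1 and for PRKG1, and 0.0491 for VCL, and 0.281 for MYL9. With the small RNA split as a covariate in DESeq2, those of TUBB1, ENDOD1 and PRKG1 were 0.0126, 0.0180 and 0.0264, and VCL was at 0.0506. Leaving control 3 out of the edgeR test brought 3 of the 10 genes under the threshold (ENDOD1 at an adjusted P = 0.0230, TUBB1 at 0.0350 and PRKG1 at 0.0429) and raised the number over all genes from 5 to 154. No other single dog, left out alone, brought any of the 10 under it.

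**Figure D2:**
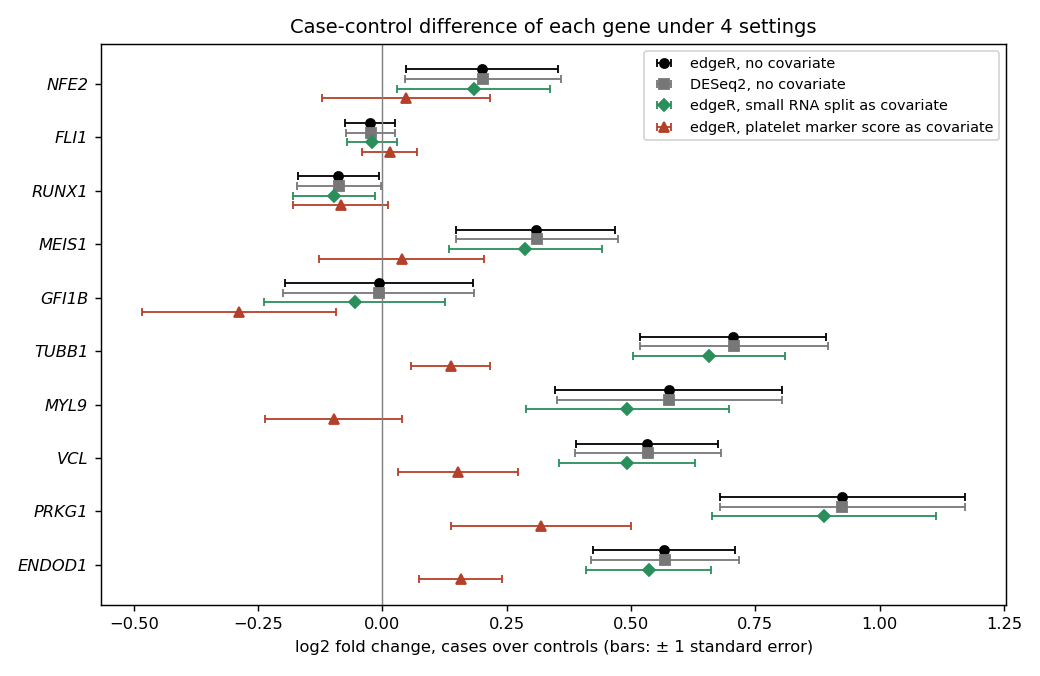
Log2 fold change of cases over controls for each gene, with bars of 1 SE, under 4 settings (edgeR alone, DESeq2 alone, edgeR with the small RNA split added, and edgeR with the platelet marker score added). The first 3 settings lie close together for every gene, and once the platelet score was added the values of TUBB1, MYL9, VCL, PRKG1 and ENDOD1 lie between −0.10 and 0.32.

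Other platelet genes were set beside the 10. Of 15 platelet markers, PF4 was not found by its symbol, CMTM5 had 0 counts in every dog, and 13 were tested. All 13 had a log2 fold change above 0 with all dogs (PPBP and PEAR1 were at −0.07 and −0.09 within the high side of the small RNA split, and PPBP at −0.28 in females), and 10 of them had an unadjusted P-value under 0.05, with none past the adjusted threshold in edgeR. Without control 3, GP9 and TREML1 passed it (edgeR adjusted P = 0.0483 and 0.0492). Their median log2 fold change was 0.56, against −0.02 over all genes tested. The collagen receptor gene GP6 had 84.4 ± 26.9 CPM in the cases and 55.3 ± 21.7 CPM in the controls (SD), and GP1BA, part of the receptor for von Willebrand factor, had 108 ± 55.1 and 62.3 ± 35.4 CPM. PPBP, the most abundant granule chemokine of platelets, was nearly level (1907 ± 678 and 1736 ± 756 CPM, log2 fold change 0.14). Markers with such a P-value also included GP9, TREML1, CLEC1B, RGS18, SELP, P2RY1 and ALOX12, and GNG11 and PEAR1 had none. Summed over the markers found, the level ranged from 1253 to 5186 CPM in the cases and from 923 to 5376 CPM in the controls.

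A platelet marker score was taken as the mean centred log2 CPM of these 13 genes, none of which is among the 10. Cases had a mean score of 0.33 ± 0.44 (SD, n = 13) and controls one of −0.23 ± 0.51 (SD, n = 18), a difference of 0.56 (two-sided permutation test, P = 0.0035, adjusted P = 0.0315 over 9 marker lists). Within the high side of the small RNA split, with 5 dogs per group, the difference was 0.34 (exact permutation test, P = 0.214). The other 8 marker scores, for neutrophils, monocytes, T cells, B cells, cytotoxic cells, erythroid cells, basophils with eosinophils, and progenitors, differed between the groups by −0.19 to 0.68 with adjusted P-values from 0.363 to 0.716 (permutation tests). The erythroid score had the largest of these differences and also the widest spread.

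**Figure D3:**
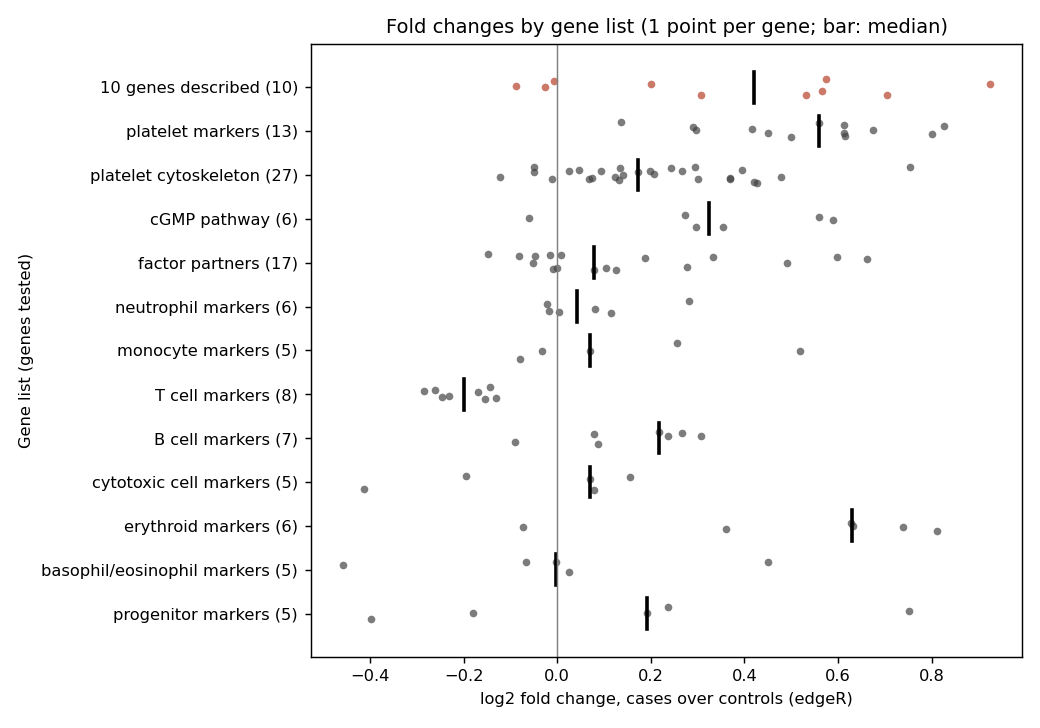
Log2 fold changes of cases over controls in edgeR, 1 point per gene, for the 10 genes and for the lists of other genes, with the number of genes tested in brackets and a bar at the median. The platelet markers have their median at 0.56, and the T cell markers, at −0.20, lie on the other side of 0.

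When the platelet score was added to the edgeR model, 0 of the 10 genes had an unadjusted P-value under 0.05, beside 6.21% of all genes in the same fit. The log2 fold change was then 0.14 for TUBB1, −0.10 for MYL9, 0.15 for VCL, 0.32 for PRKG1 and 0.16 for ENDOD1, with unadjusted P-values of 0.0952, 0.482, 0.218, 0.0864 and 0.0670, respectively. For GFI1B it went from −0.01 to −0.29 (SE 0.19), and for MEIS1 from 0.31 to 0.04. Because the score was itself higher in the cases, such a covariate takes out part of any difference that runs along with it. A larger share of platelet RNA and a higher level per platelet cannot be told apart in these samples.

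The dogs of 1 group also varied among themselves. Each gene's log2 CPM was set against marker scores for platelets, neutrophils, T cells and erythroid cells, within cases and within controls, which made 80 relations with P-values from permutation tests adjusted over all 80. TUBB1 had the highest Pearson's r with the platelet score of the 10 genes in both groups. It was 0.96 in the cases (permutation P = 1e-05, the smallest that the permutations can give) and 0.95 in the controls (permutation P = 1e-05), and Spearman's rho was 0.95 (permutation P = 3e-05) and 0.93 (permutation P = 1e-05). Without the 2 dogs farthest from the median score, r was 0.95 and 0.91.

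ENDOD1 and MYL9 also followed the platelet score. For ENDOD1, r with the platelet score was 0.95 in the cases and 0.85 in the controls (permutation P = 1e-05 and 3e-05), with rho at 0.97 and 0.87 (permutation P = 1e-05 and 2e-05). MYL9 had an r of 0.83 and 0.89 (permutation P = 0.00057 and 1e-05) and a rho of 0.83 and 0.82 (permutation P = 0.00092 and 5e-05). All of these passed the adjusted threshold of 0.05. Without the 2 farthest dogs r was 0.90 and 0.79 for ENDOD1, and 0.72 and 0.88 for MYL9.

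VCL followed the platelet score less tightly in the controls, and PRKG1 less tightly in the cases. VCL had an r of 0.87 in the cases and 0.67 in the controls (permutation P = 0.0002 and 0.00259), with a rho of 0.84 and 0.64 (permutation P = 0.0007 and 0.00552). For PRKG1 the order was the other way round, with an r of 0.68 in the cases and 0.85 in the controls (permutation P = 0.0106 and 2e-05) and a rho of 0.61 and 0.93 (permutation P = 0.0296 and 1e-05), where the rho in the cases did not pass the adjustment (adjusted P = 0.125, permutation test). The difference between groups in these correlations was not tested. In the cases, r without the 2 farthest dogs was 0.73 for VCL and 0.61 for PRKG1, and of the 5 genes only TUBB1 and ENDOD1 then passed the adjusted threshold. In the controls the r of VCL was 0.53 without the 2 farthest dogs and did not pass it. With the small RNA split taken out, the r of PRKG1 in the cases was 0.64 and no longer passed the adjusted threshold (adjusted P = 0.0692, permutation test).

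**Figure D4:**
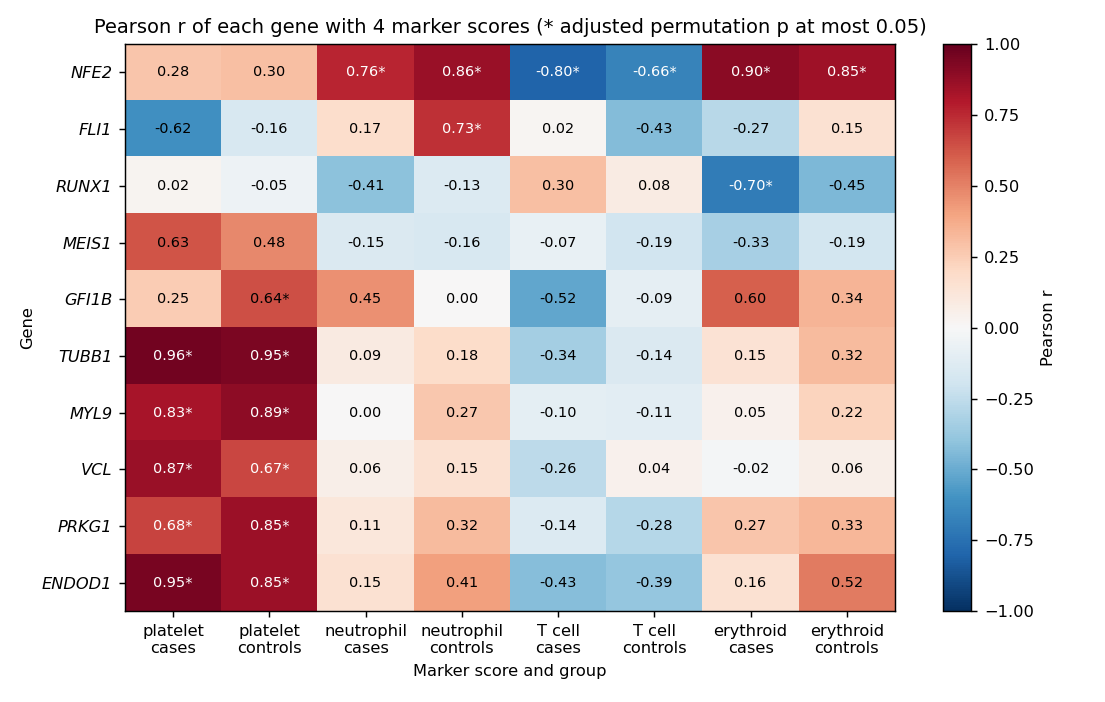
Pearson's r of each gene's log2 CPM (rows) with the platelet, neutrophil, T cell and erythroid marker scores (columns), within the 13 cases and within the 18 controls. An asterisk marks an adjusted permutation P-value up to 0.05 over the 80 relations. The 5 structural and effector genes are at 0.67 or above in both platelet columns, and NFE2 stands out in the neutrophil, T cell and erythroid columns.

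Of the factors, GFI1B alone passed the adjusted threshold with the platelet score, and in the controls only. With the small RNA split taken out, GFI1B in the controls no longer passed it (r = 0.58, adjusted P = 0.0540, permutation test) and FLI1 in the cases did (r = −0.72, adjusted P = 0.0220, permutation test). NFE2 had an r of 0.28 and 0.30 with the platelet score in cases and controls (permutation P = 0.353 and 0.219). With the erythroid score its r was 0.90 in the cases and 0.85 in the controls (permutation P = 7e-05 and 1e-05), with a rho of 0.90 and 0.76 (permutation P = 9e-05 and 0.00042). It also rose with the neutrophil score, at r = 0.76 and 0.86 (permutation P = 0.00267 and 1e-05) and rho = 0.76 and 0.90 (permutation P = 0.00412 and 2e-05), and ran against the T cell score, at r = −0.80 and −0.66 (permutation P = 0.00106 and 0.00254) and rho = −0.83 and −0.74 (permutation P = 0.00086 and 0.00067). Without the 2 farthest dogs these 6 values of r were between 0.68 and 0.89 in size, and that with the neutrophil score in the cases no longer passed the adjusted threshold.

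GFI1B had an r of 0.64 with the platelet score in the controls (permutation P = 0.00444), near that of VCL (0.67), but rho was 0.41 (permutation P = 0.0921), and in the cases r was 0.25 (permutation P = 0.399). Without the 2 farthest dogs the r of GFI1B in the controls was 0.51 and did not pass the adjustment. With the erythroid score in the cases, GFI1B had an r of 0.60 (adjusted P = 0.107, permutation test) and a rho of 0.69 (adjusted P = 0.0491, permutation test). That r was 0.82 without the 2 farthest dogs (adjusted P = 0.0201, permutation test). In the controls the r of GFI1B with the erythroid score was 0.34 (permutation P = 0.168). For FLI1 the r with the platelet score was −0.62 in the cases (permutation P = 0.0237, adjusted P = 0.0904) and −0.16 in the controls, and in the controls FLI1 rose with the neutrophil score (r = 0.73, permutation P = 0.00057, and rho = 0.65, permutation P = 0.00407). In the cases this r was 0.17 (permutation P = 0.572), and without the 2 farthest dogs it was 0.51 in the controls, which did not pass the adjustment, and −0.03 in the cases. RUNX1 fell with the erythroid score in the cases (r = −0.70, permutation P = 0.00817, and rho = −0.71, permutation P = 0.00888), with r at −0.64 without the 2 farthest dogs, which did not pass the adjustment, and in the controls r was −0.45 (permutation P = 0.0605). MEIS1 had an r of 0.63 with the platelet score in the cases and 0.48 in the controls, and neither passed the adjustment (adjusted P = 0.0893 and 0.14, permutation tests). In the cases, the r of MEIS1 was 0.23 without the 2 farthest dogs.

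**Figure D5:**
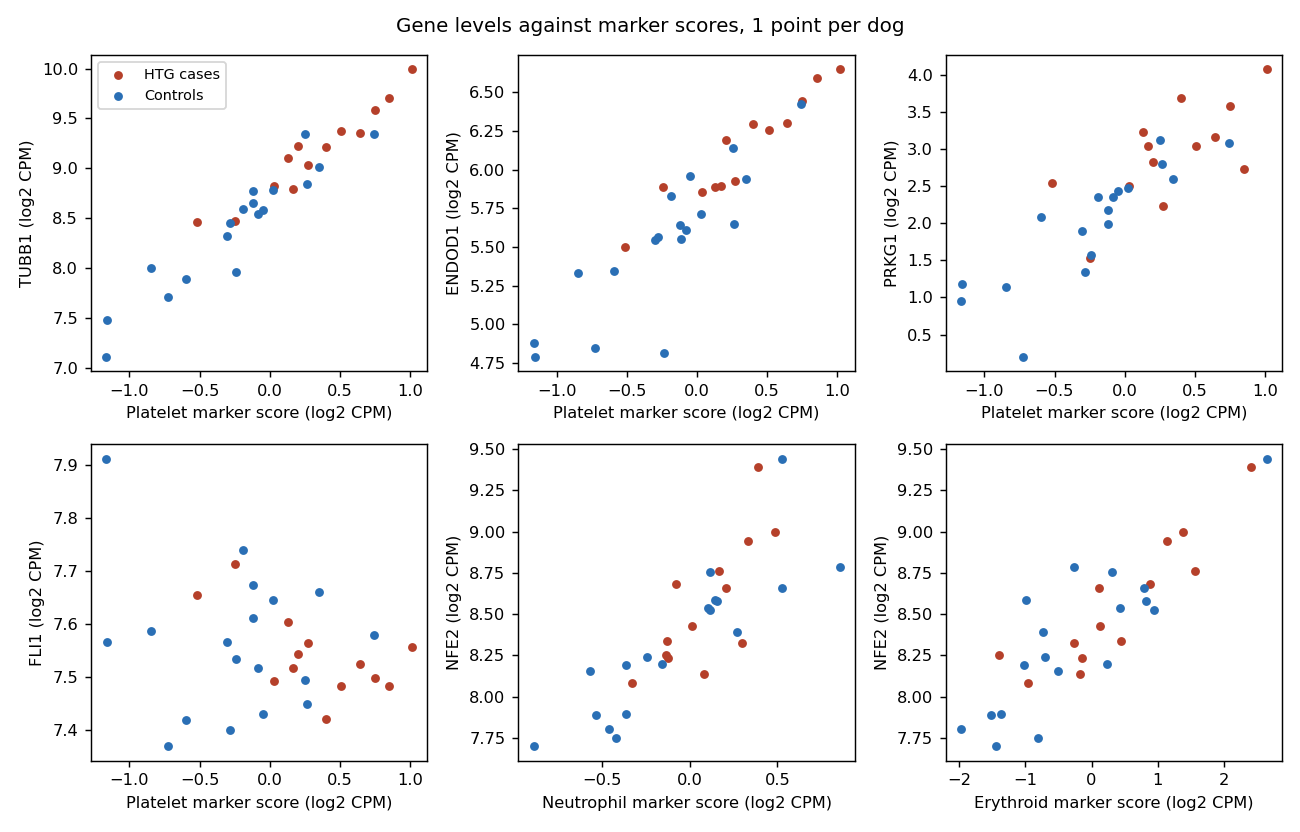
Log2 CPM of 5 genes against marker scores, 1 point per dog, with cases in red and controls in blue, each panel with its own vertical scale. TUBB1, ENDOD1 and PRKG1 climb with the platelet score in both groups, FLI1 covers under 1 unit of log2 CPM in all, and NFE2 climbs with the neutrophil and erythroid scores.

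With the group means taken out, the 5 structural and effector genes were alike over the 31 dogs. Their 10 pairs had a Pearson's r from 0.63 (VCL with PRKG1) to 0.92 (TUBB1 with ENDOD1), given as a description, since all values of a dog come from 1 library. The largest r between a factor and another member was 0.49, that of MEIS1 with MYL9. Among the factors r went from −0.38 (NFE2 with RUNX1) to 0.37 (NFE2 with GFI1B), so that no 2 factors were as alike as any pair of the 5.

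Over all genes tested, the named genes most like TUBB1 on this measure were ITGA2B (r = 0.96), PTGS1 (r = 0.96) and GP9 (r = 0.94), which encode a platelet integrin chain, the cyclooxygenase that makes the precursor of thromboxane in platelets, and a chain of the receptor for von Willebrand factor. ENDOD1 was most like ITGA2B (r = 0.93), TUBB1 (r = 0.92) and ITGB1 (r = 0.90), and VCL was most like MMRN1 (r = 0.88), ITGB3 (r = 0.88) and JAM3 (r = 0.86). MYL9 was most like NCK2, SAMM50 and RBPMS2 (r = 0.91, 0.91 and 0.89), and PRKG1 most like VASH1, TTYH3 and ITGB5 (r = 0.84, 0.83 and 0.82).

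The factors had other neighbours. NFE2 was most like TRIM26, BSDC1 and ZFAND2B (r = 0.92, 0.91 and 0.91), and 796 genes had an r above 0.7 with it, more than with any other of the 10. FLI1 was nearest to CCPG1, GCA and CCDC88B (r = 0.79, 0.79 and 0.78), and GFI1B to CASS4, ADGRE3 and OVGP1 (r = 0.85, 0.80 and 0.79). RUNX1 and MEIS1 had 1 gene each above 0.7, namely ALG5 (r = 0.70) and ZNF704 (r = 0.73).

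Of 21 genes that work with these factors, 17 were tested (GATA1 and LYL1 were not found by symbol, and MECOM and HOXA9 had too few counts). At an unadjusted P-value under 0.05, 4 were higher in the cases and 0 were lower (5.04% and 4.76% of all genes tested), and none passed the adjusted threshold in edgeR. They included the ETS factor ERG (log2 fold change 0.60, SE 0.24), the GATA cofactor ZFPM1 (0.49, SE 0.15) and TAL1 (0.33, SE 0.13). The partners of RUNX1, NFE2 and GFI1B were nearer 0, with CBFB at −0.05, MAFG at 0.19, MAFK at 0.28, KDM1A at −0.15 and RCOR1 at 0.01 on the same scale. The median of the 17 was 0.08.

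Among 30 further genes of the actin, myosin and tubulin cytoskeleton of platelets, 27 were tested. Of these 27, 12 were higher in the cases at an unadjusted P-value under 0.05 and 0 were lower (5.04% and 4.76% of all genes tested), and none passed the adjusted threshold in edgeR. Their median log2 fold change was 0.17. Without control 3, TUBA4A passed it (edgeR adjusted P = 0.0467). The smallest P-values with all dogs were those of FERMT3, the integrin activator kindlin-3 (0.24, SE 0.07), TUBA4A, an α-tubulin (0.37, SE 0.12), the actin cross-linker ACTN1 (0.42, SE 0.13) and the filamin gene FLNA (0.27, SE 0.09).

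In the cGMP pathway around PRKG1, 6 of 7 genes were tested (PRKG2 had too few counts). At an unadjusted P-value under 0.05, 2 of these were higher in the cases and 0 lower, beside 5.04% and 4.76% of all genes tested. MRVI1, which encodes the kinase's substrate IRAG, had 172 ± 53.6 CPM in the cases and 114 ± 49.0 CPM in the controls (SD), a log2 fold change of 0.59 (SE 0.20). PDE5A, the phosphodiesterase that breaks down cGMP, had 217 ± 70.6 and 148 ± 49.8 CPM, a log2 fold change of 0.56 (SE 0.19). Both had an edgeR adjusted P = 0.283. The guanylate cyclase genes GUCY1A1 and GUCY1B1 had log2 fold changes of 0.35 (SE 0.18) and 0.30 (SE 0.29).

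The sexes were compared with the group in the same edgeR fit. Of the 10 genes, RUNX1 alone had an unadjusted P-value under 0.05, beside 4.89% of all genes. It was lower in females than in males in both groups, with means of 40.7 ± 7.56 CPM (SD, n = 5) and 47.2 ± 5.58 CPM (SD, n = 8) in the cases and 44.1 ± 6.49 CPM (SD, n = 8) and 50.2 ± 6.60 CPM (SD, n = 10) in the controls. The log2 difference, females over males, was −0.20, with an unadjusted P = 0.0126 and an edgeR adjusted P = 0.959. This failed the correction.

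The difference between cases and controls was also set side by side in each sex. In TUBB1 and PRKG1 it was close, with log2 fold changes of 0.72 and 0.85 in males and 0.65 and 1.02 in females. MYL9 had 0.72 (SE 0.29) in males and 0.30 (SE 0.33) in females, and NFE2 0.07 (SE 0.21) and 0.40 (SE 0.21). For VCL it was 0.72 (SE 0.18) in males and 0.22 (SE 0.21) in females, and for MEIS1 it was 0.50 (SE 0.17) and −0.06 (SE 0.29). MEIS1 had means of 4.17 ± 0.64 CPM in the 8 male cases, 2.95 ± 0.79 CPM in the 10 male controls, 2.80 ± 0.56 CPM in the 5 female cases and 2.95 ± 1.22 CPM in the 8 female controls (SD). The interaction of group and sex had unadjusted P-values of 0.0809 for VCL and 0.0716 for MEIS1 in the edgeR test, and none of the 10 genes was under 0.05, beside 3.93% of all genes. After adjustment the interaction passed the threshold in 0 of the 13918 genes in edgeR.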

How the data were processed

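Whole-blood RNA of 31 dogs, 1 library each, was prepared with a stranded total RNA kit that removes ribosomal RNA. The authors trimmed reads with Trimmomatic, aligned them with HISAT2 to the Dog10K_Boxer_Tasha genome and deposited raw counts of read pairs with both mates mapped. The counting program, its strand setting and its annotation are not given in the sources used here, so that reads shared with paralogs or antisense genes could not be told apart. Groups and sex came from the labels.

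In R 4.3.3, edgeR 4.0.16 filtered genes by group, normalised counts with TMM and ran the quasi-likelihood test without a covariate, with Benjamini-Hochberg adjustment over 13918 genes and a threshold of 0.05. The study's own test had a batch covariate, which the labels do not give. DESeq2 1.42.0 and limma 3.58.1 were alternatives. Standard errors in edgeR were derived from the test, as the size of the log2 fold change over the square root of the F statistic. Intervals are the log2 fold change ± 1.96 of these standard errors and are approximate. Log2 CPM used a prior count of 2. Permutation tests were two-sided with 100000 resamples. They and the edgeR test were tested on simulated data. Figures were drawn in Python 3.11.15 with matplotlib 3.10.9. Depth was 14524659 to 41533599 counts per dog.

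The members, lists and alternatives were chosen with earlier results of these data known. The genes named are the 10 members, the platelet markers, up to 4 genes per further list with the smallest P-values and the 3 genes most like each member. CBFB, MAFG, MAFK, KDM1A, RCOR1 and GUCY1B1 fall outside this rule and were named after their values were seen. Some genes that this rule takes in are not reported here. Promoter motifs and sequences were not analysed here.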

Additional observations from a re-analysis of the deposited data

How the results depend on the processing

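Under every alternative run, TUBB1, VCL, PRKG1 and ENDOD1 stayed higher in the cases, and MYL9 did so under all but one. The number of the 10 genes past the adjusted threshold, 0 in edgeR, was 4 in DESeq2, 3 in DESeq2 with the small RNA split, 1 without case 1 and control 3 (ENDOD1), and 0 to 3 when single dogs were left out. The number of genes past it in the whole table, 5, was 89 in DESeq2, 107 in DESeq2 with the split, 28 without case 1 and control 3, 1 among genes with at least 10 counts in every dog, and 1 to 154 when single dogs were left out (154 without control 3, 23 without case 12, 12 without case 8 and 1 without case 1). It was 0 in limma-voom, with the platelet score as a covariate, on the high and low sides, and in males and females alone, where the unadjusted P-value was under 0.05 in 1556, 864, 518, 1510, 832 and 1291 genes. The cause of these changes was not tested. The last 4 settings hold fewer dogs.

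Of the 10 genes, 5 had an unadjusted P-value under 0.05, and this number was 0 with the platelet score, 2 on the high side, 3 in females and 4 to 6 when single dogs were left out. The platelet score differed by 0.34 on the high side (exact permutation P = 0.214, n = 5 dogs in each group). In DESeq2, 27 genes differed by sex, against 17 in edgeR. Without the 2 farthest dogs, the number of genes that passed for the platelet and neutrophil scores in the cases was 2 and 0, against 5 and 1.

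Some directions turned. When the platelet score was a covariate, log2 fold changes were 0.014 for FLI1, −0.098 for MYL9, −0.014 for GUCY1A1, −0.052 for PDE3A, −0.50 for PPBP, −0.021 for GP9, −0.16 for GNG11 and −0.084 for PEAR1. PPBP, GP9, GNG11 and PEAR1 are themselves among the genes of that score. On the high side they were 0.021 for FLI1, −0.067 for PPBP and −0.089 for PEAR1, and in females 0.013 for FLI1, −0.063 for MEIS1, 0.11 for GFI1B and −0.28 for PPBP. GFI1B was at 0.013 in limma-voom, 0.057 without case 1 and control 3, and from −0.12 to 0.051 when single dogs were left out, with 15 of these 31 above 0. The sex difference of FLI1 was −0.0026 with the split. Among the correlations, those without the 2 farthest dogs turned to −0.072 and 0.23 (RUNX1 with platelets, cases and controls), 0.27 (FLI1 with platelets, controls), −0.034, 0.10, −0.0031 and −0.053 (FLI1, MEIS1, TUBB1 and PRKG1 with neutrophils, cases), 0.0061 (MEIS1 with neutrophils, controls), −0.012 (FLI1 with T cells, cases) and −0.13 (VCL with T cells, controls). With the split taken out they turned to −0.076 (RUNX1 with platelets, cases), −0.11, −0.16 and −0.094 (TUBB1, MYL9 and VCL with neutrophils, cases), −0.044 (GFI1B with neutrophils, controls), 0.0077 and 0.12 (MEIS1 and MYL9 with T cells, cases), −0.046 (MYL9 with erythroid cells, cases) and −0.0053 (VCL with erythroid cells, controls). With RLE normalisation FLI1 with T cells in the cases was at −0.014. Of the other values of single genes, 14 case-control differences passed the adjusted threshold under an alternative alone, and among correlations 3 did so and 10 no longer passed.

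Cases and controls share numbers in the labels. Over the 13 pairs of dogs with the same number, the correlation of deviations from the group mean ran from −0.44 to 0.26 with 3 above 0.1, and 1 case was most like the control of its own number, so the numbers were not taken as pairs. In edgeR with the replicate block, 26 dogs, 0 genes passed the adjusted threshold (847 with an unadjusted P-value under 0.05), and 4 of the 10 genes had an unadjusted P-value under 0.05. Depth limits MEIS1 and PRKG1 most, with as few as 26 and 30 counts in a dog.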
